A study of Eublepharis macularius with 23 samples.

Results

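The genes described here are *NES* and a set of genes of Schwann cells and peripheral nerve, followed across embryonic dorsal skin of the leopard gecko (*Eublepharis macularius*). They were chosen by name, 7 symbols in all: *NES*, *MBP*, *ERBB3*, *EGR2*, *CDH19*, *NGFR* and *S100B*. *NES* was picked because its level differed between Hypome 1 genotypes in these same libraries, so its values are given as a description with no test. The other 6 symbols ask whether peripheral glia genes move with it. Of the 7, 6 were found among the 22064 genes of each count table, and all 6 passed the filter on low counts. *S100B* was not found by its symbol.

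Hypome 1 and Hypome 3 are hypomelanistic morphs, lines of geckos with reduced dark pigment. The Hypome 1 skins came from 4 embryos homozygous for the Hypome 1 allele, 3 heterozygous embryos and 2 wild-type embryos, the last named WT in the labels. All 9 had the same pair of heterozygous parents, so they are siblings, and they were collected over several seasons. The Hypome 3 skins used here came from 3 embryos heterozygous for the Hypome 3 allele. All were taken at embryonic day 40, roughly when melanin first appears in the skin, and the sex of the embryos was not known. Each library is polyadenylated RNA of whole dorsal skin, so a lower level can reflect fewer cells of a type or less RNA per cell, and these cannot be told apart.

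*NES* encodes nestin, an intermediate filament protein known in mammals from neural progenitors, immature and repair Schwann cells, developing muscle and vessel walls. Peripheral glia come from the neural crest, as do pigment cells. Schwann cell precursors travel along growing nerves, depend on neuregulin signals received through ERBB3, and in mammals and birds can also give rise to melanocytes in the skin. Later stages are marked in turn by EGR2, the transcription factor that switches on myelination, and by myelin proteins such as MBP.

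Total counts were between 32455975 and 52017277 in the Hypome 1 libraries and between 16826633 and 21208295 in the Hypome 3 libraries. Even numbers were more frequent in the Hypome 1 than in the Hypome 3 counts, and whether Hypome 1 read pairs were counted as 1 or by their ends could not be settled, so totals and counts of the 2 tables are not on 1 footing. Levels are library-scaled counts (CPM) scaled by TMM factors, which correct for differences in library composition. Homozygous replicate 1 stood apart with a factor of 0.78, against 0.963 to 1.08 in the other Hypome 1 libraries. Its summed level of 13 skeletal muscle genes was 3490 CPM, while the other 3 homozygous libraries had 24.5 to 80.0 CPM. Homozygous replicates 1 and 4 had the lowest RNA integrity of the Hypome 1 libraries in the study's library list, which was joined to the libraries by replicate number, a link the labels do not give. The skin markers *COL1A1*, *COL1A2* and *LUM* of the dermis and *TP63* and *DSP* of the epidermis were present in every group, with *COL1A1* at 73600, 70000 and 76200 CPM on average in homozygous, heterozygous and WT skin.

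*NES* was lowest in homozygous skin, intermediate in WT skin and highest in heterozygous skin. The gene spans positions 387995 to 400399 of Scaffold 1 in the authors' assembly, on the plus strand. The homozygous libraries had 21.9, 24.9, 31.7 and 27.4 CPM of *NES*. The heterozygous libraries had 53.4, 71.4 and 56.8 CPM, and the WT libraries 40.4 and 48.9 CPM. No library of one genotype overlapped those of another, an order of homozygous below WT below heterozygous shared by 57 of 16751 genes tested (0.34%). Homozygous libraries were all below heterozygous ones for 8.22% of genes and all below WT ones for 9.52%. *NES* averaged 26.5 ± 4.16 CPM over homozygous libraries (SD, n = 4), with 60.5 ± 9.53 CPM over heterozygous libraries (n = 3) and 44.6 ± 5.99 CPM over WT libraries (n = 2).

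On the log2 scale *NES* differed by −1.19 (standard error, SE, 0.15) between homozygous and heterozygous skin, where 472 of 16751 genes had a difference as low or lower. It differed by −0.75 (SE 0.17) between homozygous and WT skin and by 0.44 (SE 0.19) between heterozygous and WT skin. These comparisons share libraries, so they are not independent of each other. The library with the most muscle RNA, homozygous replicate 1, also had the lowest *NES*. Without it, the differences of homozygous skin from heterozygous and WT skin were −1.11 and −0.68. Without homozygous replicates 1 and 4 they were −1.09 and −0.65. The late collection season held all 3 genotypes, and there *NES* averaged 28.3 CPM in 2 homozygous libraries, against 56.8 CPM in the single heterozygous and 40.4 CPM in the single WT library. In the middle season *NES* averaged 24.6 CPM in 2 homozygous libraries, against 48.9 CPM in the single WT library. These 2 were homozygous replicates 1 and 4, so leaving those out also left out the homozygous libraries of that season. Among homozygous libraries season and RNA integrity cannot be told apart. The remaining heterozygous libraries shared no season with homozygous or WT libraries. For them genotype and season cannot be told apart. The seasons come from the same list and rest on the same link.

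**Figure D1:**
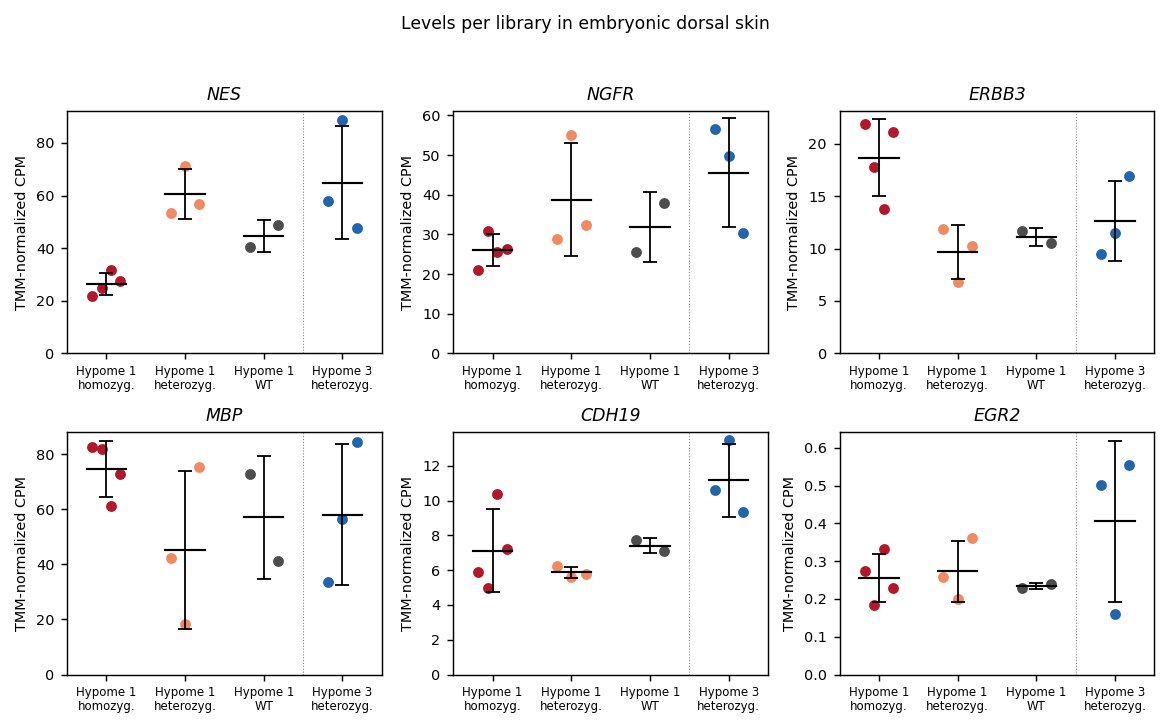
Levels of the 6 genes found in each library, in TMM-scaled CPM, each point 1 embryo, with the mean (bar) and the SD (whiskers) of each group: homozygous, heterozygous and WT Hypome 1 and, right of the dotted line, heterozygous Hypome 3. *NES* sits between 21.9 and 31.7 CPM in homozygous skin, below every other library, while *ERBB3* sits at 13.8 CPM or more there and at 11.9 CPM or less in the other Hypome 1 genotypes.

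The test called none of the peripheral glia genes, but it called so few of all genes that this says little about them. The quasi-likelihood test of edgeR, adjusted by Benjamini-Hochberg over all genes tested, called 0 of 5 between homozygous and heterozygous skin, where it called 0.0358% of all genes tested. At an unadjusted p under 0.05 there were 2 of 5, *ERBB3* on the higher side, with 9.7% of all genes, and *NGFR* on the lower, with 8.13%, where 17.8% passed in either direction. DESeq2's Wald test on the same 9 libraries called *ERBB3* as higher and none of the others, with *EGR2* left without an adjusted p, where it called 4.61% of genes as higher and 2.51% as lower.

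*ERBB3*, the neuregulin receptor of Schwann cell precursors, ran opposite to *NES*. It spans 2064790 to 2157227 of Scaffold 19. *ERBB3* had 21.9, 17.8, 13.8 and 21.1 CPM in the homozygous libraries, against 11.9, 6.83 and 10.2 CPM in the heterozygous and 11.7 and 10.5 CPM in the WT libraries. All 4 homozygous libraries were above all 5 others. Against heterozygous skin, 8.92% of all genes tested had homozygous libraries that were all higher, and against WT skin 9.93%.

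The log2 fold change of *ERBB3* was 0.95 (SE 0.22, adjusted p = 0.099 by edgeR) in homozygous against heterozygous skin, and 0.75 (SE 0.26, adjusted p = 0.475 by edgeR) against WT skin. The call turned on the test and on 1 library. DESeq2 gave an adjusted p of 0.00321 against heterozygous skin, and edgeR without homozygous replicate 3, the lowest of the 4, gave a log2 fold change of 1.07 (adjusted p = 0.0431). With the season as a factor it was 0.73 (adjusted p = 0.999 by edgeR), and within the late season *ERBB3* averaged 15.8 CPM in 2 homozygous libraries, against 10.2 CPM in the heterozygous and 11.7 CPM in the WT library. Homozygous replicates 1 and 4 had the highest *ERBB3* of the 4 and, by the study's list, the lowest RNA integrity. Without them the log2 fold change was 0.72 against heterozygous skin (adjusted p = 0.414 by edgeR). Against WT skin it was 0.52 (adjusted p = 0.999 by edgeR). The part of RNA integrity in the *ERBB3* level was not tested. *ERBB3* is also expressed by other cells of skin, and no library separates these.

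*NGFR* encodes the low-affinity neurotrophin receptor p75, found on neural crest cells, immature Schwann cells and some mesenchyme. It is the glial gene whose level went most in the direction of *NES*, and spans 44682020 to 44749288 of Scaffold 12. *NGFR* had 21.1, 30.9, 25.6 and 26.4 CPM in the homozygous libraries, against 28.8, 55.0 and 32.4 CPM in the heterozygous and 25.6 and 38.0 CPM in the WT libraries. The groups overlapped in both comparisons, and heterozygous replicate 2 alone was above 38.0 CPM. The log2 fold change was −0.57 (SE 0.24, adjusted p = 0.246 by edgeR) against heterozygous and −0.29 (SE 0.27, adjusted p = 0.801) against WT skin. Leaving out 1 library moved the difference from heterozygous skin to between −0.75 and −0.24, the last without heterozygous replicate 2. TPM divides raw counts by gene length and brings each library to the same total, without the TMM factors. In TPM the homozygous libraries were all below the heterozygous ones, at 3.62 to 6.75 TPM against 7.31 to 16.2 TPM. Gene length is the same in each library, so for the comparison of libraries only the scaling differs from CPM. On that scale 16.6% of all genes tested were lower without overlap.

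*CDH19* encodes a cadherin of Schwann cell precursors, and its level in homozygous skin stood apart from neither other group. It lies on Scaffold 8 at 81372711 to 81417619. The homozygous libraries had 5.89, 4.98, 10.4 and 7.22 CPM of *CDH19*, against 6.23, 5.63 and 5.78 CPM in the heterozygous and 7.71 and 7.12 CPM in the WT libraries. The homozygous range enclosed both others. The log2 fold change was 0.28 (SE 0.25, adjusted p = 0.566 by edgeR) in homozygous against heterozygous and −0.06 (SE 0.28, adjusted p = 0.969) in homozygous against WT skin.

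*EGR2* was at the edge of detection. It spans 26566795 to 26568980 of Scaffold 6 and had 8 to 14 counts in each Hypome 1 library. The homozygous libraries had 0.184 to 0.332 CPM, against 0.201 to 0.361 CPM in the heterozygous and 0.228 and 0.239 CPM in the WT libraries. The log2 fold change of −0.10 against heterozygous skin had an SE of 0.54 (adjusted p = 0.932 by edgeR), so a change of the size seen for *NES* was not detectable at this depth.

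*MBP*, which encodes a structural protein of compact myelin, varied widely within genotypes. It lies on Scaffold 8 at 84601204 to 84740654. *MBP* had 82.6, 81.8, 61.1 and 72.8 CPM in the homozygous libraries, against 42.3, 18.2 and 75.3 CPM in the heterozygous and 72.7 and 41.3 CPM in the WT libraries. The homozygous libraries were the closest to each other, and both other groups overlapped them. The log2 fold change was 0.72 (SE 0.39, adjusted p = 0.356 by edgeR) against heterozygous and 0.39 (SE 0.44, adjusted p = 0.845) against WT skin. The difference from heterozygous skin was 0.34 without heterozygous replicate 2, 1.30 without heterozygous replicate 3 and 0.09 with the season as a factor. Within the late season the 2 homozygous libraries averaged 71.5 CPM of *MBP* and the heterozygous library had 75.3 CPM.

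The table holds a gene annotated as S100B-like, *LOC129325604(S100B-like)*, which is outside the chosen symbols and was looked at after the search for *S100B*. S100B is a calcium-binding protein of glia and, in mammals, also of melanocytes and other cells. The homozygous libraries had 0.954, 1.06, 1.44 and 0.921 CPM of it, against 0.552, 0.352 and 0.472 CPM in the heterozygous and 0.626 and 1.04 CPM in the WT libraries. These rest on 14 to 52 counts per library. The homozygous libraries were all above the heterozygous ones and overlapped WT, with log2 fold changes of 1.24 (SE 0.42, adjusted p = 0.169 by edgeR) and 0.38 (SE 0.46, adjusted p = 0.852).

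Against WT skin, edgeR called 0 of the 5 glial genes in homozygous skin, where it called 0.0179% of all genes, and *ERBB3* alone had an unadjusted p under 0.05, on the higher side, where 4.97% of all genes were (8.53% in either direction). DESeq2 on the 9 libraries called 0 of 5, with 0.998% of genes called higher and 0.318% lower. Between heterozygous and WT skin, edgeR called 0 of 5 and 0.0% of all genes, 0 of the 5 had an unadjusted p under 0.05 (1.53% of all genes), and DESeq2 on the 9 libraries called 0 as well. *CDH19* was lower in all 3 heterozygous than in both WT libraries, as 6.02% of genes were, with a log2 fold change of −0.33 (SE 0.29). *NES* was higher in all 3 heterozygous than in both WT libraries, as 6.9% of genes were.

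Per gene length, *MBP* was the most abundant of the genes in most libraries and *EGR2* the least in all. In homozygous skin *MBP* averaged 41.1 ± 4.07 TPM, *NES* 8.07 ± 2.61, *NGFR* 5.84 ± 1.49, *CDH19* 5.35 ± 2.63, *ERBB3* 3.05 ± 0.511 and *EGR2* 0.323 ± 0.119 TPM (SD, n = 4). In heterozygous skin the averages were 30.2 ± 18.6 TPM for *MBP*, 22.2 ± 5.22 for *NES*, 10.7 ± 4.77 for *NGFR*, 5.18 ± 0.194 for *CDH19*, 1.93 ± 0.393 for *ERBB3* and 0.413 ± 0.111 TPM for *EGR2* (SD, n = 3). In homozygous skin the averages of *NES*, *NGFR*, *CDH19* and *ERBB3* each lay within 1 SD of their neighbour, taking the larger SD of the pair. *MBP* and *NES* did so in heterozygous skin. Within each homozygous library, however, *NES* was above *NGFR* and *CDH19*, and both of these were above *ERBB3*. In heterozygous replicate 2 the order changed to *NES*, *NGFR* and then *MBP*, and in homozygous replicate 3 *CDH19* was above *NGFR*.

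Dividing the *NES* count by that of another gene in the same library needs no scaling between libraries. This was done after the levels had been seen. Per count of *SOX10*, the transcription factor of neural crest, glia and pigment cells, *NES* had 0.362, 0.364, 0.339 and 0.363 counts in homozygous libraries. The ratio was 0.847, 0.880 and 0.855 in heterozygous libraries, and 0.494 and 0.708 in WT libraries. The genotypes did not overlap, and the 4 homozygous libraries, the muscle-rich one included, had a mean of 0.357 and an SD of 0.012. *SOX10* itself averaged 74.5, 70.2 and 75.4 CPM in homozygous, heterozygous and WT skin, with a log2 fold change of 0.09 (SE 0.16, adjusted p = 0.801 by edgeR) in homozygous against heterozygous skin.

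With *CDH19*, which marks glia more narrowly, *NES* had 3.71, 5.00, 3.04 and 3.80 counts per *CDH19* count in homozygous libraries. There were 8.57, 12.7 and 9.84 in heterozygous and 5.24 and 6.87 in WT libraries. Against *NGFR*, the glial gene that went with *NES* most, the ratio was 1.03 ± 0.177 in homozygous, 1.64 ± 0.297 in heterozygous and 1.44 ± 0.205 in WT libraries (SD). For each of the 6 divisors given here (*MBP*, *ERBB3*, *CDH19*, *NGFR*, *VIM* and *SOX10*), the homozygous libraries were below the heterozygous ones and below the WT ones without overlap. As *NES* was picked for its genotype difference in these libraries, the ratios describe it again on another scale and are not separate evidence. The share of the other genes tested that were below both groups in the same way was 45.1% with *ERBB3*, which was itself higher in homozygous libraries, 3.58% with *SOX10*, 3.43% with *MBP*, 3.4% with *VIM*, 1.42% with *CDH19* and 0.322% with *NGFR*.

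**Figure D2:**
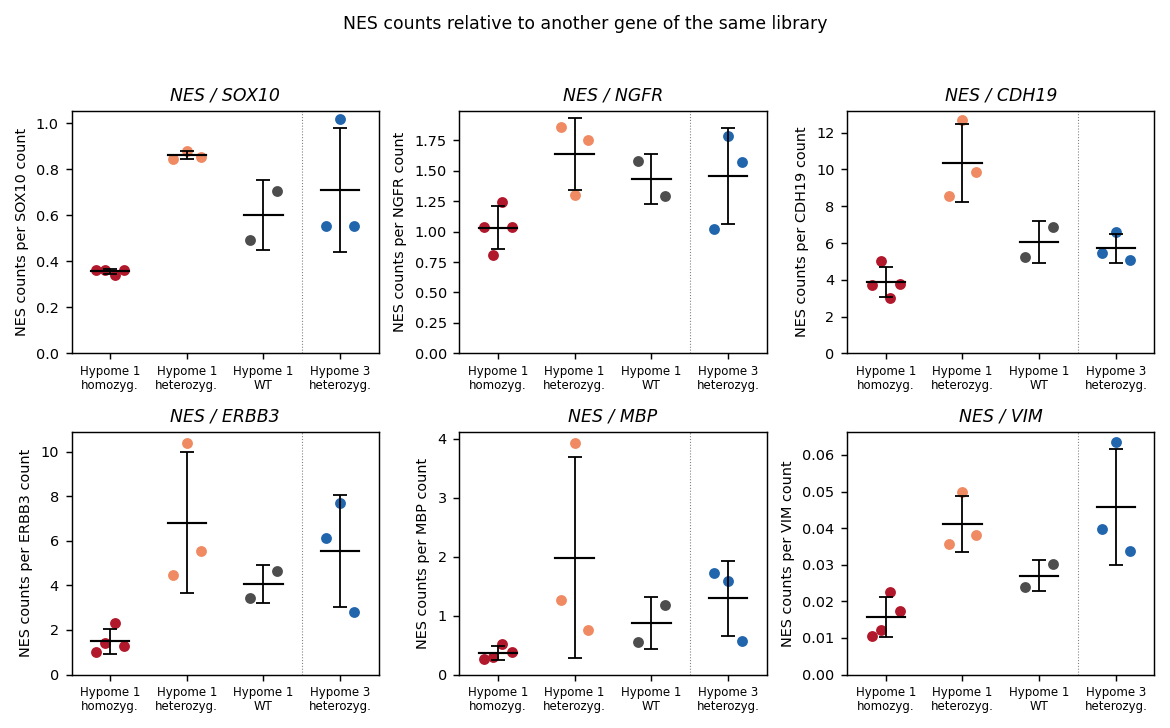
*NES* counts per count of another gene in the same library, 1 point per embryo, with mean (bar) and SD (whiskers), for homozygous, heterozygous and WT Hypome 1 and heterozygous Hypome 3 skin. With *SOX10* the homozygous libraries cluster between 0.339 and 0.364, below all others. With *NGFR* they lie between 0.807 and 1.24, below all other Hypome 1 libraries.

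The other genes of these lineages were followed in lists, beside lists of other cell types, with no test of a list as a whole. The median log2 fold change over all genes tested was 0.00 in homozygous against heterozygous skin, with quartiles of −0.25 and 0.28, and 0.01 against WT skin. edgeR called 0 of the 134 different genes tested in 12 lists in each of the 3 comparisons. An unadjusted p under 0.05 was reached by 15 higher and 15 lower against heterozygous skin (11.2% each, with 9.7% and 8.13% of all genes tested), 9 higher and 6 lower against WT skin (6.72% and 4.48%, with 4.97% and 3.56% of all genes), and 1 higher and 1 lower between heterozygous and WT skin (0.746% each, with 0.878% and 0.657% of all genes). DESeq2 on the 9 libraries called 17, 5 and 0 of them in these comparisons (12.8%, 3.73% and 0.0%, with 7.11%, 1.32% and 0.0% of all genes), and those against WT skin included *EGR1*, *EGR3*, *SORT1* and *NRG2*. Among 19 early peripheral glia genes the median was −0.18 against heterozygous and −0.02 against WT skin. There were 0 higher and 2 lower against heterozygous skin at an unadjusted p under 0.05. DESeq2 called 0 higher and 1 lower. For the genes named below as without overlap against heterozygous skin, the shares of all genes tested were 8.92% higher and 8.22% lower.

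*TFAP2A*, a transcription factor of neural crest and epidermis, was higher without overlap, at 110 CPM in homozygous against 93.4 CPM in heterozygous skin (log2 fold change 0.24, SE 0.13, adjusted p = 0.343 by edgeR).

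Among 17 genes of myelin and the node of Ranvier, the median log2 fold change was 0.16 against heterozygous and 0.00 against WT skin. *PMP22* averaged 305 CPM in homozygous against 411 CPM in heterozygous skin, and *MAL* had 3.05 against 4.49 CPM, both lower without overlap (adjusted p = 0.186 and 0.204 by edgeR). *NDRG1*, mutated in a human demyelinating neuropathy and responsive to low oxygen in many cells, had 167 CPM in homozygous against 91.9 CPM in heterozygous skin, with a log2 fold change of 0.87 (SE 0.17, adjusted p = 0.0821 by edgeR and 0.00011 by DESeq2). DESeq2 called *UGT8*, a galactolipid enzyme of myelin, as well, at 11.9 CPM in homozygous and 4.35 CPM in heterozygous skin. In this list 2 genes were higher and 2 lower than in heterozygous skin at an unadjusted p under 0.05. Of all genes tested 9.7% and 8.13% were.

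Among 13 genes around EGR2, the median was −0.04 against heterozygous and −0.03 against WT skin. The 2 other EGR factors measured were higher without overlap. *EGR3* averaged 73.6 CPM in homozygous skin, with 23.2 CPM in heterozygous and 27.3 CPM in WT skin, and *EGR1* 23.9 CPM, with 11.8 and 9.12 CPM in heterozygous and WT skin. Both are immediate early genes, which many cell types switch on within minutes of a stimulus. Their adjusted p-values against heterozygous skin were 0.0849 and 0.111 by edgeR, and 2.1e-05 and 0.00582 by DESeq2. *NAB2*, a corepressor of EGR factors, had 2.41 CPM in homozygous against 4.36 CPM in heterozygous skin and 2.5 CPM in WT skin. At an unadjusted p under 0.05, 2 of the 13 were higher and 1 lower against heterozygous skin, with 9.7% and 8.13% of all genes. DESeq2 called *EGR1* and *EGR3* higher and *NAB2* lower.

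Neuregulins, neurotrophins and their receptors were tested for 12 genes, with a median of 0.06 against heterozygous and −0.11 against WT skin. *SORT1*, a sorting receptor that partners with p75, averaged 54.8 CPM in homozygous, 31.1 CPM in heterozygous and 32.1 CPM in WT skin, a log2 fold change of 0.82 (SE 0.16, adjusted p = 0.0821 by edgeR and 0.000549 by DESeq2) against heterozygous skin. *NRG2*, a neuregulin, had 3.55 CPM in homozygous against 5.44 CPM in heterozygous and 6.94 CPM in WT skin. *NRG1*, the axonal signal read by ERBB3, had a log2 fold change of 0.11 (SE 0.21), and *ERBB2*, the partner of ERBB3, one of 0.28 (SE 0.14, adjusted p = 0.317 by edgeR). At an unadjusted p under 0.05, 2 genes were higher and 2 lower against heterozygous skin, with 9.7% and 8.13% of all genes. DESeq2 called *SORT1* higher and *NRG2* lower.

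Of 14 axon and sensory neuron genes tested, the median was −0.24 against heterozygous and 0.07 against WT skin. Of the defining neuronal genes *ELAVL3* was at 0 in all 12 libraries, and *TUBB3*, a neuronal tubulin, averaged 8.72 CPM in homozygous, 8.33 CPM in heterozygous and 7.92 CPM in WT skin. *NEFM*, a neurofilament subunit, had 2.94 CPM in homozygous against 0.728 CPM in heterozygous skin (adjusted p = 0.177 by edgeR and 0.0249 by DESeq2), and *MAP2*, a dendritic microtubule protein, 0.796 against 0.293 CPM (adjusted p = 0.357 by edgeR). Both were higher without overlap. The counts against heterozygous skin at an unadjusted p under 0.05 were 1 higher and 1 lower, with 9.7% and 8.13% of all genes. Among 7 genes of an intermediate filament list, not all of them partners of nestin, the median was −0.13 against heterozygous and 0.10 against WT skin. Of these, 1 was higher and 0 lower against heterozygous skin at an unadjusted p under 0.05. *VIM*, the vimentin with which nestin copolymerizes, had a log2 fold change of 0.27 (SE 0.16, adjusted p = 0.401 by edgeR), and *LMNA*, a nuclear lamin, had 565 CPM in homozygous against 384 CPM in heterozygous skin (adjusted p = 0.221).

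**Figure D3:**
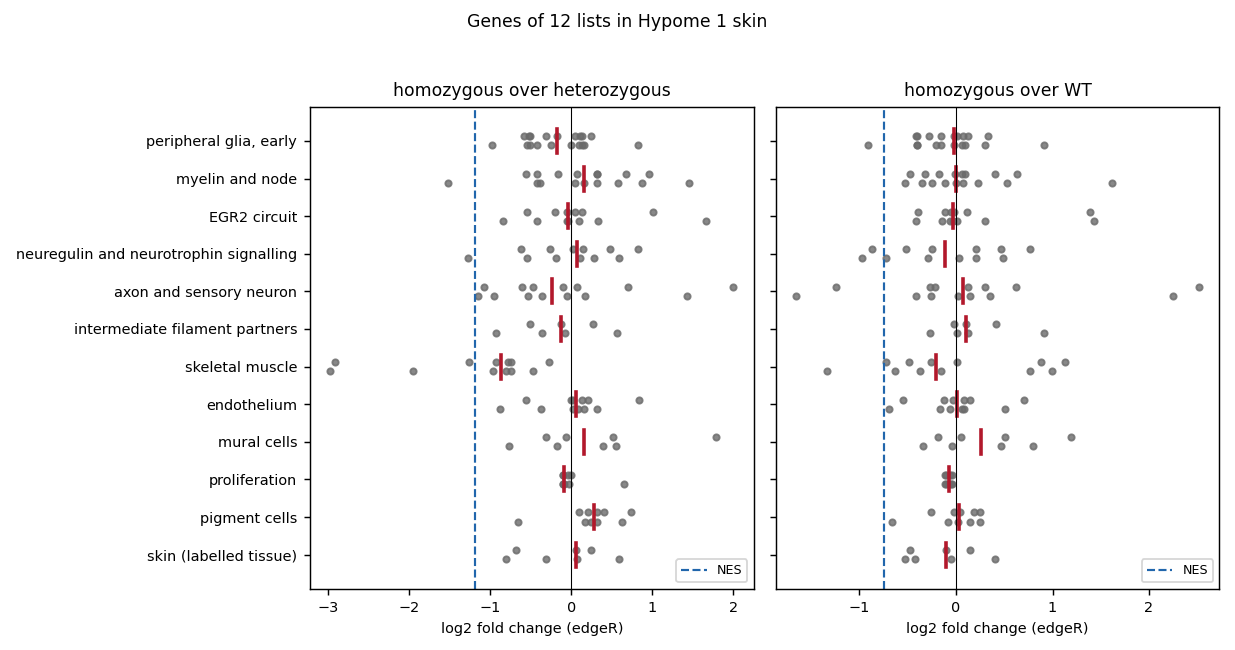
Log2 fold changes of the genes tested in each list, 1 point per gene, homozygous over heterozygous and homozygous over WT Hypome 1 skin, with the median of each list as a bar and *NES* as a dashed line. List medians of glia, myelin, EGR2 and signalling genes sit within 0.18 of 0, and the skeletal muscle list has a median of −0.87 in homozygous over heterozygous skin.

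Cell types other than glia can hold *NES*, and their markers are given beside it. Skeletal muscle genes, of which 12 were tested, were all below 0 in homozygous against heterozygous skin, with a median of −0.87, and all above 0 in heterozygous against WT skin, with a median of 1.47. The summed muscle level was 3490, 34.5, 24.5 and 80.0 CPM in homozygous, 1440, 242 and 2530 CPM in heterozygous and 362 and 570 CPM in WT libraries. The homozygous and heterozygous ranges overlapped through homozygous replicate 1, and the median moved to −3.41 when that library was left out. *NES* was lowest in the homozygous library richest in muscle and highest in the heterozygous library poorest in it, while of the 2 WT libraries the one with more muscle had more *NES*. The part of muscle in the *NES* level was not tested. *MYMK*, a defining gene of fusing myoblasts, was at 0 in homozygous and WT libraries. *MYOG*, the myogenin of differentiating myoblasts, averaged 0.107 CPM in homozygous against 0.890 CPM in heterozygous skin, lower without overlap (adjusted p = 0.126 by edgeR and 0.0144 by DESeq2). Of the 12, 0 were higher and 2 lower against heterozygous skin at an unadjusted p under 0.05, with 9.7% and 8.13% of all genes.

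Vessel wall markers split. The summed level of 8 mural cell genes was 187 to 217 CPM in homozygous, 234 to 311 CPM in heterozygous and 208 to 229 CPM in WT libraries. It was lower in homozygous than in heterozygous skin without overlap, as *NES* was, and overlapped WT, and its part in the *NES* level was not tested. *MCAM* carried the greatest part of that sum, at 122 CPM in homozygous, 208 CPM in heterozygous and 155 CPM in WT skin (log2 fold change −0.77 against heterozygous skin, SE 0.16, adjusted p = 0.0881 by edgeR and 0.000803 by DESeq2), while the median over the 8 genes was 0.16. *KCNJ8*, a pericyte channel, was higher without overlap at 0.615 against 0.175 CPM. The 12 endothelial genes had a summed level of 142 to 168 CPM in homozygous, 142 to 160 CPM in heterozygous and 153 to 165 CPM in WT libraries, and a median of 0.05. The endothelial factor *ERG* had 7.61 CPM in homozygous and 14.0 CPM in heterozygous skin, lower without overlap (adjusted p = 0.147 by edgeR). DESeq2 called *ERG* lower and *VWF*, a clotting factor of endothelium, higher, the second with overlapping libraries and a log2 difference of 0.83 (SE 0.24) in homozygous against heterozygous skin. *EGFL7*, an endothelial secreted protein, had 56.5 against 48.8 CPM, higher without overlap (adjusted p = 0.374). At an unadjusted p under 0.05 each of these 2 lists had 1 gene higher and 1 lower, with 9.7% and 8.13% of all genes.

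Of 10 pigment cell genes 9 had a log2 fold change above 0 against heterozygous skin, with a median of 0.27. Their summed level was 1670 to 2280 CPM in homozygous, 1160 to 1700 CPM in heterozygous and 1810 to 2180 CPM in WT libraries. The melanosome genes *PMEL* and *MLANA* were higher than in heterozygous skin without overlap, at 1430 against 926 CPM and 108 against 81.8 CPM. Their adjusted p-values were 0.16 and 0.124 by edgeR, and 0.0312 and 0.0207 by DESeq2. In WT skin they averaged 1410 and 94.2 CPM, and homozygous and WT libraries overlapped for both. Over the 10 genes the median was 0.03 in homozygous against WT and −0.24 in heterozygous against WT skin. *EDNRB*, a receptor of neural crest and pigment cells, had 48.6 CPM in homozygous against 76.9 CPM in heterozygous and 76.8 CPM in WT skin (adjusted p = 0.159 by edgeR), a gene picked out after seeing its values. Against heterozygous skin the list had 4 genes higher and 1 lower at an unadjusted p under 0.05, with 9.7% and 8.13% of all genes. The medians of 9 proliferation and 7 skin genes were −0.09 and 0.05, and in the skin list *PDGFRA*, a receptor of dermal fibroblasts, had 19.3 CPM in homozygous against 33.7 CPM in heterozygous skin and *DSP*, an epidermal desmosome protein, 2730 against 1820 CPM, both without overlap (adjusted p = 0.158 and 0.139 by edgeR, 0.0427 and 0.0195 by DESeq2). In the skin list 1 gene was higher and 2 lower at an unadjusted p under 0.05. No proliferation gene had an unadjusted p under 0.05, and DESeq2 called 0 of them.

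The 10 genes whose pattern was most like *NES* over the 9 Hypome 1 libraries are given as a description. None was a glial gene chosen by name, which says little, as any few genes would seldom reach the top 10 of so many. Likeness was Pearson's r of log2 CPM with 0.5 added, over 14174 genes that averaged at least 1 CPM. As *NES* has separate levels by genotype, a high r mostly restates the genotype order, and 253 genes had an r of at least 0.9. The 10 nearest were *FHOD3*, *BTBD3*, *MMP2*, *LOC129337684(NGFR-like)*, *MME*, *GLIS2*, *OGT*, *RFLNB*, *PALLD* and *PAK3*, with r between 0.96 and 0.98. *MMP2*, a gelatinase of mesenchyme, averaged 136 CPM in homozygous, 250 CPM in heterozygous and 223 CPM in WT skin. *FHOD3*, a formin that assembles actin, had 13.7, 23.1 and 19.2 CPM in the same order of groups. *PALLD*, which encodes the actin-bundling palladin, had 34.1 CPM in homozygous, 56.8 CPM in heterozygous and 51.5 CPM in WT skin.

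A gene annotated as NGFR-like stood in this group. *LOC129337684(NGFR-like)* averaged 44.3 CPM in homozygous, 93.0 CPM in heterozygous and 80.4 CPM in WT skin, with log2 fold changes of −1.07 and −0.86 in homozygous against heterozygous and WT skin. It is a separate row from *NGFR*, and whether reads were shared between them was not tested. For the glial genes r was 0.76 for *NGFR* (rank 1483), −0.11 for *CDH19* (rank 7821), −0.75 for *MBP* (rank 12418) and −0.95 for *ERBB3* (rank 14103). *EGR2* was below the level needed.

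**Figure D4:**
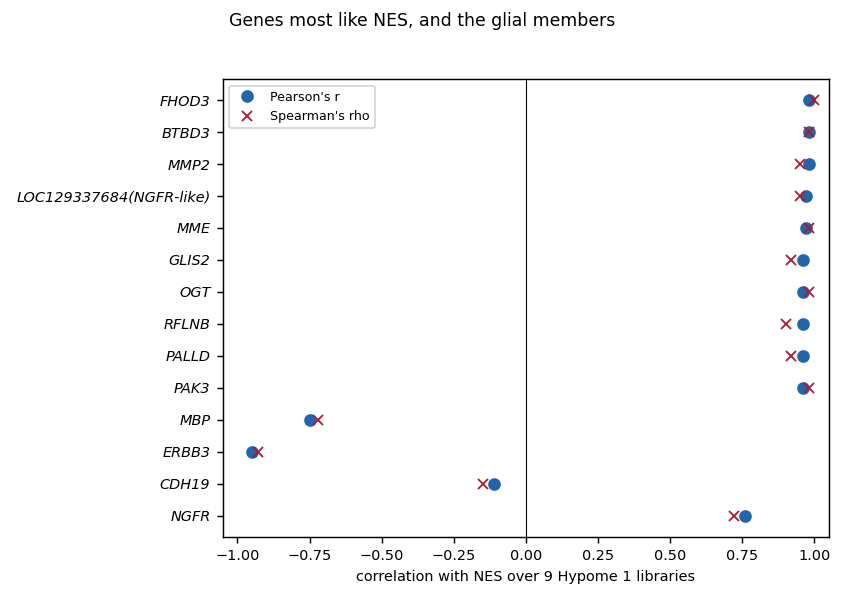
Correlation of log2 CPM with *NES* over the 9 Hypome 1 libraries for the 10 genes most like it and for 4 glial genes, Pearson's r as circles and Spearman's rho as crosses. The 10 nearest genes lie at r of 0.96 to 0.98, *NGFR* at 0.76, *CDH19* at −0.11, *MBP* at −0.75 and *ERBB3* at −0.95.

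Heterozygous Hypome 3 skin was counted in another table and carries another allele, so morph, parentage and table cannot be told apart from each other, and values are given side by side with no test. *NES* had 58.0, 88.8 and 47.5 CPM there, against 53.4, 71.4 and 56.8 CPM in heterozygous Hypome 1 skin, and the ranges overlapped. *NES* in all 3 Hypome 3 libraries was above the 31.7 CPM of the highest homozygous Hypome 1 library. TMM factors were computed within each table, so CPM values of the tables were not brought to a common scale. *MBP* had 33.5, 56.3 and 84.4 CPM and *ERBB3* 9.47, 11.5 and 16.9 CPM in Hypome 3 skin.

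*CDH19* had 10.6, 13.5 and 9.36 CPM in Hypome 3 skin, above the 5.63 to 6.23 CPM of heterozygous Hypome 1 skin without overlap. So were 28.8% of all genes tested, with 2.67% all lower, and the summed levels of 7 of the 12 lists, early glia, myelin, endothelium and proliferation among them. *NGFR* had 56.6, 49.8 and 30.3 CPM, which overlapped heterozygous Hypome 1 skin. *EGR2* had 11, 3 and 9 counts, or 0.501, 0.161 and 0.554 CPM. Per *SOX10* count, *NES* had 0.554, 1.02 and 0.552 counts in Hypome 3 skin, a wider spread than the 0.847 to 0.880 of heterozygous Hypome 1 skin.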

How the data were processed

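RNA of embryonic dorsal skin was prepared by the authors with a stranded polyadenylated RNA kit, and per the labels reads were aligned with STAR 2.7.10b and counted with featureCounts of Subread 2.0.6, on the authors' own gecko assembly. The deposited values are raw counts per gene. Of Hypome 1 counts between 10 and 2000, 57.8 to 65.5% were even, against 49.9 to 50.0% in the Hypome 3 table, which may mean that read ends and not pairs were counted for Hypome 1 (not given in the sources used here), so fits were repeated on halved counts. Left out were 5 lines of 1 broken gene in each table and 3 columns named WT in the Hypome 3 table, whose names match no sample. Homozygous Hypome 3 and all Hypome 2 samples were not analysed here.

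Genes were tested with edgeR 4.0.16 (R 4.3.3; quasi-likelihood, 2-sided, TMM, 1 mean per genotype over 9 libraries, filter at a minimum count of 10 and total of 15), with Benjamini-Hochberg adjustment over 16751 genes and a threshold of 0.05. Standard errors are those of the log2 fold change, taken as its size divided by the square root of the F statistic of this test. For *NES* they are given as a description only. DESeq2 1.42.0 was the alternative, besides other filters, scalings, samples and factors. Libraries are separate embryos, with no 2 alike within sampling noise. On simulated counts for these 16751 genes, the test recovered 41% of genes changed by 1 on the log2 scale and 82% of those changed by 2 between homozygous and heterozygous libraries, and 35% and 76% between homozygous and WT libraries. It also called 5 and 11 unchanged genes in these comparisons. The simulation gave genes of like level the same spread, which real genes need not have, so these shares may be too high for these data.

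The genes and the 12 lists were chosen with earlier results of these data known. Named genes are the chosen symbols, the genes of a list that were called, up to 2 per list with the largest rise and the largest fall without overlap between homozygous and heterozygous libraries, and the 10 genes most like *NES*; others are said to be outside it or serve as the marker, ligand, partner or divisor named. Lists overlap in *SOX10*, *ZEB2*, *GFAP*, *INA*, *PRPH* and *DES*. Some genes of the lists that this rule includes are counted but not reported here. Sequences are not shown.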

Additional observations from a re-analysis of the deposited data

How the results depend on the processing

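*NES* kept its direction in all 57 alternatives, at −1.28 to −1.06 in homozygous against heterozygous, −0.89 to −0.61 in homozygous against WT and 0.31 to 0.59 in heterozygous against WT skin (log2). *NES* was picked for its difference in these libraries and its genotypes did not overlap, so most alternatives could hardly reverse it. The comparisons also share libraries, and these ranges are a description and not separate evidence. *ERBB3* ranged over 0.72 to 1.13 against heterozygous skin and was called in 3 alternatives, each of which called 1 glial gene: DESeq2 on the 9 libraries, DESeq2 on the groups compared alone and edgeR without homozygous replicate 3. No other glial gene was called in any alternative.

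The count of genes called between homozygous and heterozygous skin was 6 by edgeR, 1135 by DESeq2 on the 9 libraries, 1039 by DESeq2 on the groups alone, 3 by edgeR on the groups alone, 16 with no filter, 0 with the season as a factor and 2 without homozygous replicates 1 and 4. Leaving out 1 library at a time gave 2 to 274, the highest without homozygous replicate 3, and 53 without heterozygous replicate 3. Against WT skin it was 3 by edgeR, 215 and 427 by the DESeq2 fits and 1 without homozygous replicates 1 and 4, with 0 to 14 on leaving out 1 library (0 without WT replicate 2, 14 without homozygous replicate 3). Between heterozygous and WT skin it was 0, with 2 by DESeq2 on the groups alone and 0 to 3 on leaving out 1 library. The causes were not tested.

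Replicate numbers showed no clear pairing of the samples. Over 7 pairs with the same number, deviations from the group means correlated at −0.35 to 0.29, and 3 of 9 libraries correlated best with their own number. In groups this small the deviations are tied to each other, so these correlations cannot exclude a pairing. With the replicate number as a block edgeR called 0 genes in each of the 3 comparisons, and *EGR2* reversed to −0.09 in homozygous against WT and −0.03 in heterozygous against WT skin.

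Other reversals were of genes not called. *CDH19* was 0.06 against WT skin without homozygous replicates 1 and 4, and *MBP* 0.33 in heterozygous against WT skin with the season as a factor. On leaving out 1 library, *EGR2* ran from −0.27 to 0.14 in homozygous against heterozygous, −0.04 to 0.25 in homozygous against WT and −0.02 to 0.39 in heterozygous against WT skin, *CDH19* from −0.29 to 0.08 and *NGFR* from −0.55 to 0.02 in homozygous against WT, and *NGFR* from −0.06 to 0.60 and *MBP* from −0.91 to 0.13 in heterozygous against WT skin. *EGR2* did not pass the filter under the stricter minimum or with halved counts, and DESeq2 gave it no adjusted p between homozygous and heterozygous skin. Of the list medians, 77 of 684 moved by more than their spread, unevenly over the lists. In homozygous against heterozygous skin the axon and sensory neuron median moved in 10 alternatives and kept in 9, over −0.36 to 0.06. That of neuregulin and neurotrophin genes moved in 9 and kept in 10, over −0.02 to 0.22. Early glia moved in 6 and kept in 13, over −0.2 to 0.0, and myelin and node genes moved in 2 and kept in 17. The 10 genes most like *NES* were the same 10 with 0.1 added to CPM, and 5 of them were in the top 10 by Spearman's rho.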
